A study of Rattus norvegicus with 6 samples.

Results

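The loci described are very short rows of the authors' gene table that carry a gene symbol: the locus, from its start to its end, is under 300 bp, the symbol is not a Hist (histone) name, and the authors could test the row. The rule uses names and positions and no expression value. It takes 498 of the 26459 rows that the authors tested, under 432 symbols, with lengths from 32 to 299 bp and a median of 178.5 bp. The cells are RUCA-I, an epithelial line from an endometrial adenocarcinoma of a Lewis rat. The groups are wild type (WT), with 3 batches of cells, and miR-203 knockout (KO), with 3 lines made independently of each other. All were untreated, and total RNA was taken near confluence.

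Each row holds 1 FPKM value per group (fragments of a locus per kilobase of its length, relative to all fragments of the library), which pools the 3 samples. A value therefore has no SD here, and the depth of each sample is unknown. A locus was counted as called where the authors' q-value was under 0.05, and rose and fell are used below for called loci alone. Sizes of change across many loci are given as log2((KO + 1)/(WT + 1)), a scale that understates changes of low loci. The labelled cell type was checked with marker genes. Of 6 epithelial markers 5 were tested and 0 were called, 3 of them at an unadjusted p under 0.05 in the authors' deposited table. Lower in KO were Epcam, at 501 FPKM in WT and 419 in KO, and Cdh1, at 152 and 144. Higher in KO were Krt8, at 204 and 241, Cldn4, at 213 and 228, and Krt18, at 103 and 121. Of 5 fibroblast markers only Col1a1 was tested, at 1.43 and 1.17 FPKM, and none of 4 leukocyte or 4 endothelial markers was tested.

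miR-203 is a microRNA of epithelia that pairs with messenger RNAs through its seed and lowers their output. The mature rat sequence of miR-203a is shown because it is the molecule that the KO lines lack per their labels. RefSeq places it on GRCr8 at chr6:137020756-137020777 on the forward strand, and the capitals mark the seed, bases 2 to 8.
rno-miR-203a-3p: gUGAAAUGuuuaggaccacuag

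A locus this short can be a small noncoding RNA, a fragment or single exon of a longer gene, or a stretch of a retrocopied gene. Small noncoding RNAs such as the RNA parts of RNase MRP and RNase P are made by RNA polymerase III. RNase P trims the ends of precursor transfer RNAs, and RNase MRP takes part in ribosomal RNA maturation. Symbols that start with AABR or AC come from accessions of rat assembly sequences, contigs for AABR and clones for AC. Both are called clone names below for short. LOC symbols name genes without a given name, and retrocopies are copies of messenger RNAs that were written back into the genome. By symbol, 1 of the 498 loci has a small RNA name, 4 have symbols of ribosomal protein genes, 23 have LOC symbols, 144 have clone names (122 AABR and 22 AC) and 326 have other symbols. The last class holds 264 loci with ordinary gene symbols, 40 with Rn50 or Rn60 names, 17 with RGD or NEWGENE names and 5 named as pseudogenes or Rik genes.

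Of the 498 loci, 7 were called in the authors' deposited table, 5 of them higher in KO and 2 lower. That is 1.41% of the loci, beside 1.05% called over all tested rows (0.491% higher and 0.556% lower), so the share lies near that of the whole table. At an unadjusted p under 0.05 there were 29 loci (5.82%), beside 6% of all tested rows. The share called was 0.696% among 1150 unnamed loci under 300 bp, 1.10% among 1094 named loci of 300 to 599 bp and 1.20% among 17904 longer named loci. The loci that rose were Rmrp, AC121204.3, LOC500035, LOC100360950 and Dmpk, and those that fell were Mest and Crnkl1. By class, calls fell on 1 of 1 small RNA name, 1 of 144 clone names, 2 of 23 LOC symbols, 3 of 326 other symbols and 0 of 4 ribosomal protein symbols. In 4 of the 7, the value of one group is listed at 0.

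**Figure D1:**
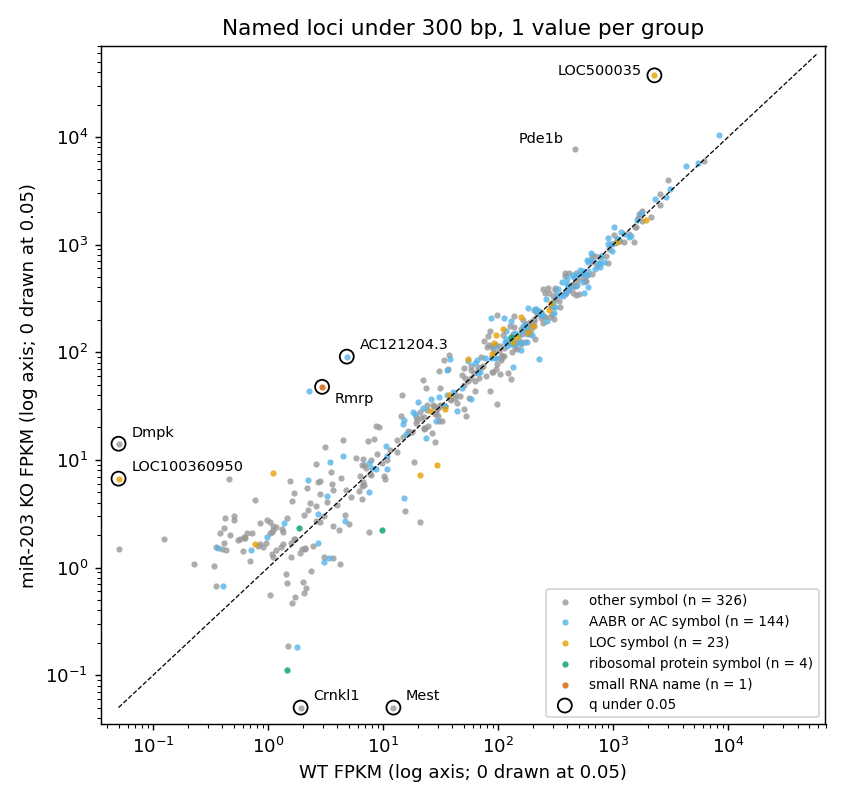
FPKM of the 498 named loci under 300 bp in WT (horizontal) and miR-203 KO cells (vertical), both on log axes with 0 drawn at 0.05, coloured by symbol class. Circles mark the 7 loci with an authors' q under 0.05, and the dashed line marks equal values; most loci lie along it, and LOC500035 and Pde1b stand far above it at high level.

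The only small RNA name was Rmrp, at chr15:27738958-27739222 on rn6 (264 bp). It stood at 2.94 FPKM in WT and 47.7 FPKM in KO, a ratio of 16.2. In the authors' deposited table its q is 0.00756. The symbol and the place do not settle which RNA the row holds. RefSeq lists a gene with the symbol Rpph1, the name of the RNase P RNA. Its type there is RNase MRP RNA, and Rmrp is among its synonyms. RefSeq places it beside Parp2, between Ccnb1ip1 and Tep1, and lists a snoRNA gene, LOC120097276, next to it in order. In the authors' table, too, the row named Rmrp lies 234 bp from Parp2, which encodes a DNA repair polymerase. In other mammals it is the RNase P RNA gene that lies beside Parp2.

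The clone locus AC121204.3, at chr5:58994675-58994901 on rn6 (226 bp), moved in the same way. It stood at 4.82 FPKM in WT and 91.0 FPKM in KO, a ratio of 18.9, and its q in the authors' deposited table is 0.00756. It lies 388 bp from the locus shared by Ccdc107 and Arhgef39. In other mammals the RNase MRP RNA gene lies beside Ccdc107. In the rat RefSeq order Ccdc107 lies between Sit1 and Arhgef39, and no RNase MRP RNA gene is among the neighbours looked up. What RNA AC121204.3 holds was not tested, since neither row could be matched to a sequence here.

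None of the genes next to these loci was called. Parp2 was at 20.5 FPKM in WT and 20.7 in KO. Ccnb1ip1, a ubiquitin ligase gene of meiosis 5130 bp from Rmrp on the other side, has 4 rows, none of them called, and the highest was at 3.81 FPKM in WT and 2.53 in KO. Beside AC121204.3, Ccdc107 was at 4.02 and 4.14 FPKM and Arhgef39, a guanine nucleotide exchange factor, at 5.02 and 5.12. Car9, a carbonic anhydrase 15575 bp away, was at 0.977 and 1.18 FPKM. In the authors' deposited table the q of Parp2, Ccdc107, Arhgef39 and Car9 is 0.997 each.

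**Figure D2:**
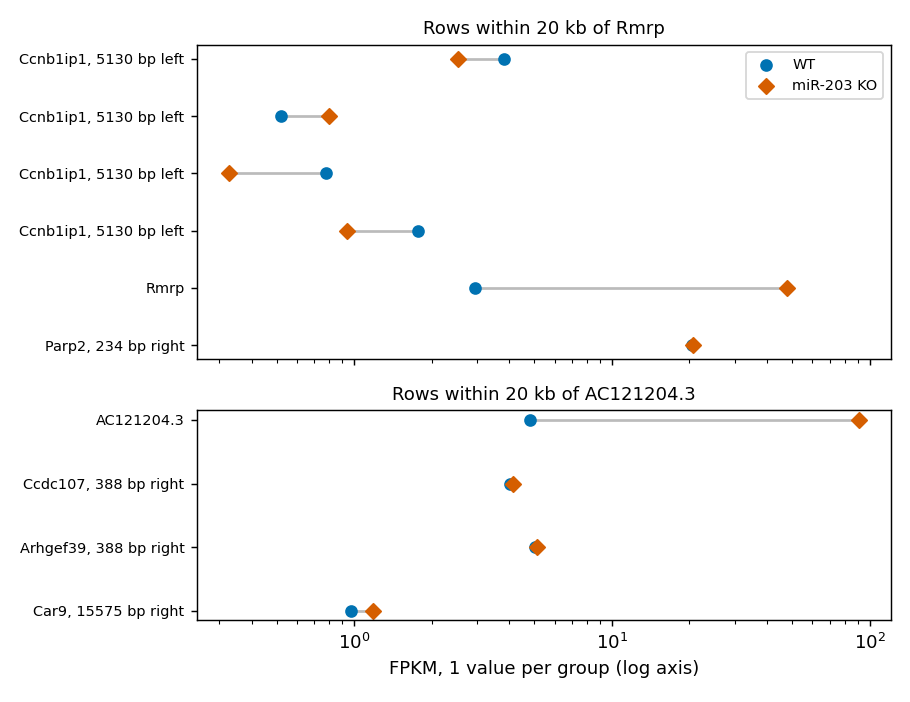
FPKM (log axis) in WT (circles) and miR-203 KO cells (diamonds) for every row within 20 kb (20000 bp) of Rmrp and of AC121204.3, labelled with its distance. The 2 short loci shift from 2.94 to 47.7 and from 4.82 to 91.0, and the rows beside them stay near their WT values or, for Ccnb1ip1, are low and go both ways.

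The bases before the start of Parp2 and of Ccdc107 are shown because they lie between those genes and the side on which Rmrp and AC121204.3 stand. Both are the 250 bases upstream of the gene start in RefSeq, on GRCr8 and the forward strand, at chr15:26507409-26507658 for Parp2 and chr5:62545100-62545349 for Ccdc107. The first 80 bases of the Parp2 sequence overlap the RefSeq gene Rpph1. The capitals mark the octamer ATTTGCAT, or ATGCAAAT where it stands on the other strand, a motif known from upstream elements of small RNA genes.
Parp2: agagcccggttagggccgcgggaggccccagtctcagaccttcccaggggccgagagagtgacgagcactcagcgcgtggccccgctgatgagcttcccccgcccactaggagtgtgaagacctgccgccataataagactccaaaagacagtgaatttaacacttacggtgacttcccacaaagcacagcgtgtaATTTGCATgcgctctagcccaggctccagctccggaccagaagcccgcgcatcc
Ccdc107: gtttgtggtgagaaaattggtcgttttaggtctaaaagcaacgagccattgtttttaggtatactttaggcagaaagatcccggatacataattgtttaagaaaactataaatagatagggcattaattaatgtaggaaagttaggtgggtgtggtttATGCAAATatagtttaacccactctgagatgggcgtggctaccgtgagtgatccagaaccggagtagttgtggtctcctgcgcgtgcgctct
The octamer lies 46 bp before the start of Parp2, on the printed strand, and 84 bp before that of Ccdc107, on the other strand. On either strand it occurs in 523 of 33469 RefSeq windows of 250 bases (1.56%). It was chosen after these 2 sequences had been seen, and a match is a description of letters, not of a bound site.

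Genes that work with such RNAs did not pass the test at the longest row of their symbol, the row used here. Other rows of these symbols are not covered. Of 10 protein subunits of RNase MRP and RNase P, 9 were tested and 0 were called, with 0 at an unadjusted p under 0.05 in the authors' deposited table. Their median log2 ratio was -0.03, beside 0.02 over all tested rows. Rpp21, Pop4 and Rpp30, the highest of these subunits, were at 47.8, 37.9 and 27.6 FPKM in WT and at 43.5, 35.5 and 27.9 in KO. A list of 28 genes held the RNA polymerase III machinery and Myc, a transcription factor that is not a part of it. All 28 were tested and 0 were called (1 at an unadjusted p under 0.05), with a median of -0.05. Among them Gtf3c1, the largest subunit of the factor TFIIIC, was at 44.1 and 47.6 FPKM, Snapc3, a subunit of the complex that binds small nuclear RNA promoters, at 38.5 and 34.3, and Myc at 58.2 and 53.8.

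A list of proteins that bind small RNAs had 25 symbols, of which Trove2 and Ro60 name the same gene. Of these symbols 20 were tested, and 0 were called (2 at an unadjusted p under 0.05), with a median of -0.13. By mean of both groups their highest members were Lsm3 (183 FPKM in WT and 178 in KO), Lsm8 (177 and 179) and Lsm2 (105 and 93.6), subunits of the ring that binds the end of U6 RNA. Of 22 host genes of snoRNAs, 7 were tested and 0 were called, with 0 at an unadjusted p under 0.05 and a median of -0.15. Eif4a2, a translation initiation helicase that hosts snoRNAs, was at 93.9 FPKM in WT and 81.8 in KO. Rpl13a, a ribosomal protein gene, was at 67.9 and 66.3 FPKM and Tnpo2, a nuclear import receptor gene, at 60.4 and 59.7. A further 35 rows with symbols that begin like small RNA names have loci of 341 to 515307 bp, and so lie outside the length limit. They include Trnau1ap, a protein gene whose symbol only begins like that of a transfer RNA. Of the 35 rows 1 was called, Mir568, at 0.484 FPKM in WT and 0.944 in KO.

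The largest value of all the short loci belonged to LOC500035, at chr4:40167068-40167114 on rn6, only 46 bp long. It rose from 2279 FPKM in WT to 37327 FPKM in KO, a ratio of 16.4, with a q of 0.00756 in the authors' deposited table. The shortest locus was a 32 bp row of Pde1b, the gene of a calmodulin-dependent phosphodiesterase, at chr7:145128553-145128585. It was at 464 FPKM in WT and 7744 FPKM in KO, a ratio of 16.7, and it was not called: its p is 0.172 and its q 0.997 in the authors' deposited table. It is the only Pde1b row. These were the only members under 60 bp. Among unnamed rows there were also 2 under 60 bp, 1 of which, 45 bp long on chromosome 3, went from 4639 to 56651 FPKM with a q of 0.00756 in the authors' deposited table. The other, 56 bp long on chromosome 17, went from 489 to 334 FPKM. None of these lengths reaches the length of a usual sequencing fragment, and how far that sets their FPKM was not tested.

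These short rows hold much of the summed FPKM, which divides by length and so is not a share of reads. The 498 loci are 1.88% of the tested rows but held 15.5% of the summed FPKM in WT and 18.4% in KO. Their sum was 144023 FPKM in WT and 190797 in KO, a ratio of 1.32. LOC500035 and Pde1b account for 42327 of the 46774 FPKM by which KO exceeds WT. Without the pair the sums were 141279 and 145726, a ratio of 1.03. By class, LOC symbols summed to 7269 and 42158 FPKM, clone names to 68695 and 73323, and other symbols to 67915 and 75125.

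LOC100360950, at chr17:44815660-44815912 on rn6 (252 bp), is listed at 0 in WT and at 6.69 FPKM in KO. Its q in the authors' deposited table is 0.00756. It lies at the edge of the large Hist1 histone gene cluster, whose rows on chromosome 17 run from 43614123 to 44794910. Within 100000 bp of that span there were 2 more members, neither called. LOC100912489, at chr17:43673385-43673639, was at 1.11 FPKM in WT and 7.63 in KO, with p 0.0147 and q 0.508 in the authors' deposited table. AABR07027752.3, at chr17:43778745-43778857, was at 2.25 and 43.9 FPKM, a ratio of 19.5, with p 0.0804 and q 0.938 there. All 3 members of the cluster region were higher in KO.

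Longer rows around AABR07027752.3 stood higher in KO as well. LOC690126 has 2 rows within 20000 bp, at 1.02 and 6.17 FPKM for 1 of them and at 0.663 and 2.60 for the other, and both were called. LOC684828 was called too, at 0.915 FPKM in WT and 6.73 in KO. Around LOC100912489, Hist1h2bq was at 2.30 and 2.0 FPKM and Hfe, a gene of iron uptake control, at 1.18 and 0.251. AC130391.5, 15946 bp away, was at 1.46 FPKM in WT and 1.64 in KO. None of these rows was called. No row lay within 20000 bp of LOC100360950.

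Dmpk encodes a muscle protein kinase. Its short row at chr1:79995138-79995286 (148 bp) is listed at 0 in WT and at 14.1 FPKM in KO, with a q of 0.00756 in the authors' deposited table. None of its 3 longer rows was called. They were at 0.395, 0.346 and 2.0 FPKM in WT and at 0.344, 0.146 and 2.08 in KO. The neighbour Six5, a homeobox gene, was at 4.31 and 4.11 FPKM.

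Mest, an imprinted gene expressed from the paternal copy, fell. Its only row, at chr4:58052848-58053071 (223 bp), was at 12.3 FPKM in WT and is listed at 0 in KO, with a q of 0.00756 in the authors' deposited table. The row is far shorter than a full transcript of the gene, so it does not stand for the level of Mest as a whole. The neighbour Copg2, a coat protein gene, was at 49.4 FPKM in WT and 51.6 in KO.

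Crnkl1, a splicing factor gene, fell in a row of 246 bp at chr3:140137284-140137530. That row was at 1.91 FPKM in WT and is listed at 0 in KO, with p 0.00015 and q 0.0187 in the authors' deposited table. The 2 longer rows of Crnkl1 within 20000 bp were higher in KO. One was at 0.513 and 0.679 FPKM and the other at 3.78 and 6.60, neither called. The longest Crnkl1 row, of 2306 bp, was at 8.59 FPKM in WT and 9.95 in KO. Its q is 0.997 in the authors' deposited table. Pbx4, a homeobox gene, is the fifth locus listed at 0 in a group. It is at 0 in WT and 1.48 FPKM in KO and was not called, with p 0.00185 and q 0.13 in the authors' deposited table. Over all tested rows, 22 of the 39 rows listed at 0 in a group were called. With 1 pooled value per group, the spread of these loci over the 3 samples cannot be seen.

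Over all 498 loci, 272 were higher and 226 lower in KO, so 54.6% were higher, beside 53.7% of all tested rows. The median log2 ratio was 0.05 (quartiles -0.21 and 0.40), beside 0.02 (quartiles -0.11 and 0.16) over all tested rows, and it was -0.023 once KO was scaled to equal sums over rows of 300 bp or more. The centre was thus near that of the table, and the spread on this scale was wider. A difference of at least 2-fold on the pseudocount scale was seen at 37 loci in the direction of KO and 18 in that of WT, together 11.0%. The same share was 1.54% over all tested rows, 8.35% among unnamed loci under 300 bp and 1.74% among named loci of 300 to 599 bp. These sets stand at unlike levels, and the scale understates changes of low loci. Median WT levels were 66.7 FPKM for the 498 loci and 67.5 for the unnamed ones. They were 2.97 over all tested rows and 0.729 for named loci of 300 to 599 bp. By class, median log2 ratios were 0.07 for clone names, 0.11 for LOC symbols, 0.04 for other symbols and -0.52 for the 4 ribosomal protein symbols.

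The level of the loci went with their length. The median in WT and KO was 185 and 206 FPKM at 50 to 99 bp (70 loci), 157 and 147 at 100 to 149 bp (130 loci), and 62.6 and 57.5 at 150 to 199 bp (87 loci). It was 19.1 and 22.4 FPKM at 200 to 249 bp (92 loci) and 2.61 and 2.86 at 250 to 299 bp (117 loci). Unnamed loci showed the same order, with WT medians of 216, 202, 39.2, 10.3 and 2.74 FPKM. The overall median was 66.7 FPKM in WT and 69.3 in KO, beside 2.97 and 3.06 over all tested rows. The size of the difference did not follow length in that way: the median absolute log2 ratio was 0.38, 0.29, 0.21, 0.28 and 0.38 from the shortest of these classes to the longest.

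**Figure D3:**
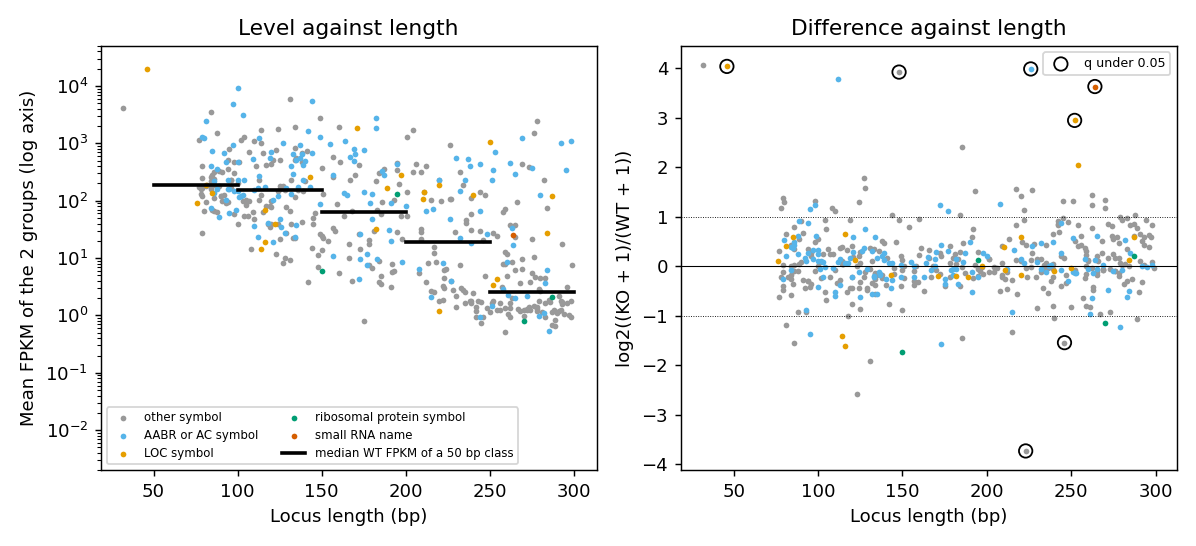
Left: mean FPKM of WT and KO (log axis) against locus length in bp for the 498 loci, with bars at the median WT FPKM of each 50 bp class. Right: log2((KO + 1)/(WT + 1)) against length, with dotted lines at 2-fold and circles at called loci; bars fall from 185 to 2.61 FPKM, and differences of over 2-fold occur along the whole range.

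Loci next to the length limit covered a wide range of levels on both sides of it. Just inside were Pcolce (297 bp, 0.604 FPKM in WT and 1.43 in KO), AC135409.1 (298 bp, 1092 and 1117), Car6 (298 bp, 0.397 and 1.48), a row of Fcgr2a (298 bp, 1.67 and 1.84) and Rn50_5_1073.1 (299 bp, 7.63 and 7.41). Just outside, at 300 bp, were Cited4 (1.52 and 1.22 FPKM), LOC100361934 (104 and 105) and RT1-T24-1 (2.16 and 1.11).

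Of the symbol classes, clone names had the highest median level, with a median of 165 FPKM in WT and 163 in KO. The highest was AABR07064457.1 on chromosome 6, with 2 rows. The row at chr6:81052721-81052821 was at 8338 FPKM in WT and 10480 in KO, and the row at chr6:81053004-81053101 at 4273 and 5372. Both rows gave the same ratio of 1.26. Their p is 0.0168 and 0.0404 and neither q passes in the authors' deposited table (0.548 and 0.789). AABR07016566.1 followed at 5439 and 5702 FPKM, AABR07073485.1 at 3085 and 3268, and AABR07026997.1 at 2877 and 2750.

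Besides AC121204.3 and AABR07027752.3, the largest log2 ratio upward, with the pseudocount, among clone names with at least 1 FPKM in both groups was that of AABR07029863.2, at 3.46 and 9.61 FPKM. On the same scale the largest downward were those of AC115420.3 (15.0 FPKM in WT and 4.42 in KO), AABR07053483.2 (227 and 87.1) and AABR07029164.1 (3.37 and 1.23). None of these passes in the authors' deposited table, where their q-values run from 0.52 to 0.957.

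Among LOC symbols, LOC297756 (1940 FPKM in WT and 1695 in KO), LOC100362987 (1080 and 1055), LOC100361645 (285 and 288) and LOC691196 (277 and 246) came next in level after LOC500035. RefSeq lists LOC297756 as a pseudogene. LOC690271 has 2 rows of 116 bp that lie within 654 bp of each other on chromosome 13 and went opposite ways, from 54.5 to 85.7 FPKM and from 29.6 to 9.02. LOC365287 was at 21.0 and 7.26 FPKM and LOC306079 at 180 and 155. None of these was called.

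The 4 loci with ribosomal protein symbols cover 3 symbols, and whether they are copies or pieces of the genes themselves was not tested. Ribosomal proteins form the ribosome and have many retrocopies, among which short reads are hard to place. Rpl30l1 was at 128 FPKM in WT and 139 in KO. Of the 2 rows of Rps3a on chromosome 2, 1 was at 9.81 and 2.24 FPKM and the other at 1.86 and 2.32. Rpl6 was at 1.46 and 0.111 FPKM in its short row and at 0.584 and 0.704 in its longest row of 1437 bp. None was called, and the median of -0.52 rests on 4 values of mixed direction.

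Among other symbols the highest level was at a row of Slc9a7, a sodium and proton exchanger gene, at chrX:2509735-2509866 (6150 FPKM in WT and 5939 in KO). Akr1b1-ps1, a pseudogene of an aldose reductase gene, was at 2963 and 3967 FPKM, with p 0.0319 and q 0.738 in the authors' deposited table. RGD1564469 was at 2564 and 2965 FPKM and Rasl2-9, a relative of the nuclear transport GTPase Ran, at 2552 and 2333. The level of each of these is that of a stretch of 84 to 278 bp, not that of a whole transcript.

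Among other symbols with at least 1 FPKM in both groups, large log2 ratios with the pseudocount belonged to uncalled rows. Upward, after Pde1b, these were Syt12, a synaptotagmin gene (3.14 FPKM in WT and 13.2 in KO), and Ak1, an adenylate kinase gene (4.49 and 15.4). Large downward ratios were those of Ube2s, a ubiquitin-conjugating enzyme gene (15.4 and 3.34), and Cntnap2, a neurexin family gene (97.4 and 32.7). In the authors' deposited table the q of Syt12, Ak1 and Ube2s is 0.997 and that of Cntnap2 is 0.97.

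Many short loci share their symbol with a longer row, and whether they are pieces of the same gene was not tested. A longer row of the same symbol exists for 196 of the 498 loci, and for 189 of these on the same chromosome. The median distance to it is 525 bp, and 165 lie within 10000 bp. These 196 loci had a median length of 219 bp and a median WT level of 6.62 FPKM, near the 8.11 FPKM of their longest rows. The other 302 had a median length of 150 bp and a median WT level of 154 FPKM. Of the 196, 107 moved in the same direction as their longest row, and of the 110 in which the short row had a mean of at least 5 FPKM, 59 did. No member overlaps another row of the table.

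RefSeq held 268 of the 498 loci by symbol: 258 loci of protein-coding genes, 9 of pseudogenes and 1 of the gene Rpph1 with the synonym Rmrp. For 10 matched loci the chromosome in the table is not that of the RefSeq gene. They belong to Ddx3y, Grb2, Rack1, Rsrc1, Tbca, Thoc1 (2 loci), Timm10b, Timm8a1 and Ythdc2. Ddx3y, a helicase gene of the Y chromosome, has its short row on chromosome 13, at 1229 FPKM in WT and 1048 in KO. Rack1, a scaffold protein of the ribosome, has it on chromosome 12, at 205 and 193 FPKM. Tbca, a tubulin chaperone, has it on chromosome 7, at 339 and 301 FPKM. None of the 10 was called.

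The Y chromosome has 4 rows in the whole table, and all 4 are short named loci. LOC103694537 was at 96.1 and 109 FPKM in WT and at 146 and 165 in KO in its 2 rows. Rn60_Y_0010.1 was at 140 FPKM in WT and 110 in KO, and Rn60_Y_0032.1 at 207 and 134. These go both ways, and none was called. The cells come from an endometrial tumour, and so from a female rat. A row's position alone does not show that its reads come from a Y chromosome, which was not tested.

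Some symbols have several short rows, which mostly lie close together and share a symbol, so they are not replicates. There are 46 such symbols with 112 rows, 40 of them with all rows within 10000 bp. All rows were higher in KO for 13 symbols and lower for 6, and they went both ways for 27. No row among the 112 was called. Fcgr2a, an immunoglobulin receptor gene, has 6 rows, all higher in KO, from 1.18 to 19.5 FPKM in WT and from 1.44 to 24.9 in KO. Gpc6, a cell surface proteoglycan, has 5 rows within 1914 bp of chromosome 15, all lower in KO, with log2 ratios from -0.53 to -0.18. Of these 2 had an unadjusted p under 0.05, and the smallest q was 0.622 in the authors' deposited table. Ugt2b17, a steroid glucuronidation enzyme, has 6 rows from 194 to 2135 FPKM in WT, 2 higher and 4 lower in KO. Ighm, the constant region of immunoglobulin M, has 5 rows, 4 higher and 1 lower, the highest at 698 FPKM in WT and 785 in KO. Leukocyte markers were not tested in these cells, and a row's symbol alone does not show that the gene itself is transcribed.

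**Figure D4:**
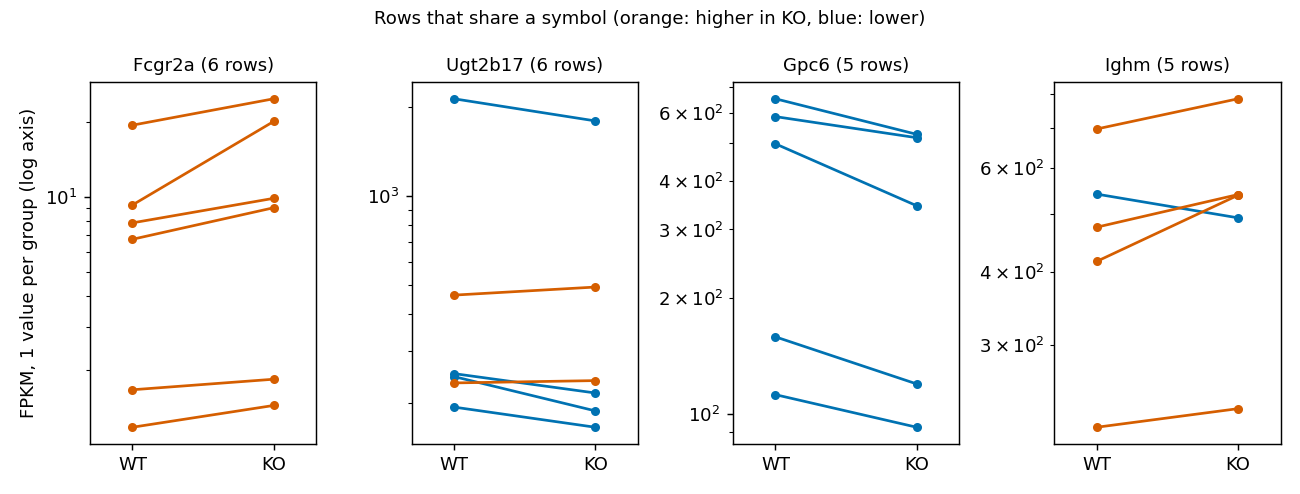
FPKM (log axes, 1 scale per panel) in WT and KO for each short row of Fcgr2a, Ugt2b17, Gpc6 and Ighm, with 1 line per row, orange where KO is higher and blue where it is lower. The 6 rows of Fcgr2a all go up and the 5 of Gpc6 all go down, and those of Ugt2b17 and Ighm go both ways; none was called.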

How the data were processed

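Total RNA of 3 WT and 3 miR-203 KO samples was turned into dUTP libraries, which keep the strand, per the labels' protocols. TopHat 0.9, Cufflinks 2.2.1, Cuffdiff 2.2.1.3 and the build rn6 are named by the submitters' processing notes. Which annotation and settings were used is not given in the sources used here. Each row of the deposited table has 1 FPKM per group, from the authors, a log2 fold change, a test score, a p-value and a q-value, and nothing per sample, per the file headers. FPKM divides by an effective length, so at loci near or under the fragment length few fragments can give a large value, and it keeps no read depth. Reads that fit near-identical copies can be split among them.

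Of 26751 rows, the 26459 with status OK were used. No test was run here: the design had foreseen limma for values per sample only, so calls are the authors' q under 0.05. The authors' q-values equalled Benjamini-Hochberg values recomputed over the tested rows (largest deviation 5.12e-07), and that step was checked on simulated data. Log2 ratios use a pseudocount of 1. The ratio of the FPKM columns missed the authors' log2 fold by over 0.01 in 18 of 493 members with no value at 0 (3.65%), beside 1.61% of tested rows, and none of the 18 was called. Related gene lists use the longest row of each symbol.

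The members, lists and tests were chosen with earlier results of these data known. The text names every called member and small RNA name. In each other class it names the 5 of highest mean and, from at least 1 FPKM in both groups, the 3 largest log2 ratios (with the pseudocount) each way, besides loci at the length limit and the 3 highest genes of a list by mean. A locus that this rule takes is not reported here. Neighbours, rows near Hist1, loci under 60 bp, repeated symbols, chromosome Y rows and loci on another chromosome were chosen after their values were seen. RefSeq tables on GRCr8 gave names and the printed sequences. Alternatives covered thresholds, length limits, low values, pseudocounts and scaling. Python 3.11.15, pandas 2.3.3, NumPy 2.4.6 and Matplotlib 3.10.9 were used.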

Additional observations from a re-analysis of the deposited data

How the results depend on the processing

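No paired analysis was possible because samples are pooled within each group, so the replicate block, leaving out each replicate and limma were not run. The 7 called loci (5 higher, 2 lower) became 29 (18 and 11) at an unadjusted p under 0.05, 2 (2 and 0) under 200 bp, 1 (1 and 0) under 100 bp and 13 (10 and 3) under 400 bp. Leaving out rows listed at 0, an alternative added after seeing the data, left 3 (3 and 0). Of the 2 lower calls, 1 was left at a q under 0.01, with q recomputed where the mean reaches 5 FPKM, without symbols that have a longer row, and at a mean of at least 1 or 5 FPKM. Under the settings of the last sentence and the others tried, the total stayed between 5 and 7. The median log2 ratio turned from 0.05 to -0.023 when KO was scaled by 0.95 to equal sums over rows of 300 bp or more, and that of all tested rows to -0.04. The ratio of summed FPKM, 1.32, became 1.26 with that scaling, 1.08 without LOC500035 and 1.03 without loci under 60 bp, the last also added after seeing the data. Of 40 named loci none that was called changed direction, and 2 uncalled ones changed sign with the scaling. Against the main value, 131 of their log2 ratios stayed within 1.5-fold and 25 did not, 17 of these with a pseudocount of 10. Pooled FPKM hides the spread between samples and the depth, which limits every value above.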

Other observations

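Values outside the comparisons above concern uncalled loci with an unadjusted p under 0.05 in the authors' deposited table, chosen after their values were seen. Sfta2, a surfactant-associated gene, was at 0.459 FPKM in WT and 6.69 in KO in a row of 185 bp (p 0.0388, q 0.78 in the authors' deposited table). Ces5a, a carboxylesterase gene, was at 1.54 and 6.35 FPKM (p 0.0359, q 0.764 in the authors' deposited table). Prkcz, an atypical protein kinase C, was at 22.0 and 55.7 FPKM in a row of 124 bp. Lower in KO were rows of Olr1206, an olfactory receptor (1512 and 1054 FPKM), Hormad1, a meiotic chromosome gene (347 and 264), and March1, a ubiquitin ligase (55.3 and 37.9). Each is a single short row and none passed the adjusted threshold.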
